A study of Homo sapiens with 2 samples.

Results

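Peaks of the transcription factor TP73 were examined at 7 genes that p53-family proteins are known to switch on during cell-cycle arrest: CDKN1A, BTG2, SFN, GADD45A, PLK2, PLK3 and GDF15. A peak was counted for a gene when its summit, the position of highest pileup, lay inside the gene span on hg19 or within 20 kb of it. This rule took 21 of the 18908 deposited peaks, and each of the 7 genes had at least 1. The rule uses the position of the gene and not the strength of a peak. The 7 genes themselves were chosen with earlier results of these data known. The spans are rounded to 1 kb, so each distance from a gene start given here can be off by up to about 1 kb. Upstream, inside and downstream refer to the rounded span. A summit within about 1 kb of an end of the span can lie on the other side of the true end.

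The cells were TL-Om1, an established line of human leukaemic T cells. Adult T-cell leukaemia, the disease it stands for in the labels, is a cancer of mature CD4+ T cells linked to the retrovirus HTLV-1. The ChIP group is 1 library, for which formaldehyde cross-linking lasted 10 min, nuclei were sonicated, and chromatin was precipitated with an antibody against TP73. The input group is 1 library of whole cell extract from the same untreated line, grown in RPMI-1640 with 10% serum, and its reads were not analysed here. No genotype change or drug separates the groups. The labels do not say which isoform of TP73 the antibody captured. With 1 library per group no value below has a replicate error, and no test of a condition was possible.

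TP73 is a paralogue of p53. Proteins of this family bind DNA as tetramers, at response elements made of a pair of decamers, and can activate an overlapping set of genes. Among these genes, CDKN1A encodes p21, an inhibitor of cyclin-dependent kinases, and its induction is the best known route from p53 to arrest before DNA synthesis. SFN and GADD45A act at entry into mitosis, PLK2 and PLK3 are stress-responsive polo-like kinases, BTG2 is an antiproliferative partner of the CCR4-NOT deadenylase, and GDF15 is a secreted cytokine of the TGF-beta family that rises under stress. TAp73 forms carry the activating domain, whereas ΔNp73 forms lack it and can block the same elements, so occupancy alone does not tell activation from repression.

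A summit lay within 1 kb of the rounded gene start at 6 of the 7 genes, all but SFN. The share of all genes with a summit that near was not analysed here, and the rounding is as large as this limit. The count therefore describes these genes only. RefSeq promoters, the 250 bases before the annotated start on GRCh38.p14, were matched for 6 of the 7 genes, GADD45A being the one unmatched. The 5 printed here belong to CDKN1A (chr6:36678464-36678713, plus strand), PLK2 (chr5:58460087-58460336, minus strand), BTG2 (chr1:203305269-203305518, plus strand), PLK3 (chr1:44800127-44800376, plus strand) and GDF15 (chr19:18385908-18386157, plus strand), each of which had a TP73 summit within 1 kb of the hg19 start. They are shown as the promoter sequence of every matched gene with a summit that near. For CDKN1A the annotated start is not the first base of the gene on GRCh38 but lies inside it, so that promoter is not the sequence before the span. For the other 4 it is. They are reference sequence, written 5′ to 3′ along the gene. Capitals mark the core tetramer of the p53-family decamer and, for PLK2, also a whole decamer with an overlapping core. The cores searched were CAAG with its reverse complement CTTG, and the palindromes, which are CATG as well as CTAG. The decamer and the set of cores read the same on both strands.
CDKN1A: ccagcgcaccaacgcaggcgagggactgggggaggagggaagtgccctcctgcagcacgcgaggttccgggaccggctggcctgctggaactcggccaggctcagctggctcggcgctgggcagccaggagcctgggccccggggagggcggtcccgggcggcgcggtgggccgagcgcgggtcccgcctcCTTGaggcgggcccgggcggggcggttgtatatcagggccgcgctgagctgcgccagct
PLK2: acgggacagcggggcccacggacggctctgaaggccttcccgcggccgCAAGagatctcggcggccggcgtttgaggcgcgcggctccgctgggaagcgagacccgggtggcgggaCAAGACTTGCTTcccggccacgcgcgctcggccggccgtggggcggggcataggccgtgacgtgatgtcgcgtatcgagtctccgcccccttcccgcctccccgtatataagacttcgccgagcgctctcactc
BTG2: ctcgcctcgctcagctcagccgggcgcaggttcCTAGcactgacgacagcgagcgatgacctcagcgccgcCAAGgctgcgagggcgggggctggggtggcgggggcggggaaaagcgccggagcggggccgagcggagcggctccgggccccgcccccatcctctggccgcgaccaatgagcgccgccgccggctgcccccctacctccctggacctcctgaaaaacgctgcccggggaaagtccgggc
PLK3: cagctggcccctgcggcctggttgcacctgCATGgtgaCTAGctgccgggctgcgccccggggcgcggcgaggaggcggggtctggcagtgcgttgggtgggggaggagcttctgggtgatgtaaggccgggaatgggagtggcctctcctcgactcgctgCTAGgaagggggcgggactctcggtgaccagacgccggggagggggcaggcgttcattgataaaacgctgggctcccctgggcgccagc
GDF15: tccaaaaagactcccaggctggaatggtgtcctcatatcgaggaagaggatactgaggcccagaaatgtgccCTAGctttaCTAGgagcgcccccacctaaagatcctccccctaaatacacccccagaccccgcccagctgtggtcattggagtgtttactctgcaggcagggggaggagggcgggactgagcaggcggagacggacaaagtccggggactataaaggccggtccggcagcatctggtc

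PLK2 was the only one of the 6 matched promoters with a complete p53-family decamer, agacttgctt, whose first base lies 132 bases before the annotated start. Of all 35116 RefSeq promoters of this length, 5.57% held a decamer and 0.0256% (9 promoters) a pair of them with at most 13 bases between. None of the 6 promoters held such a pair, which says only that these letters are not in this window. Cores alone are common: 92.8% of all promoters held at least 1, with a median of 3, against 3 in PLK2, 3 in PLK3, 2 each in BTG2, GDF15 and SFN, and 1 in CDKN1A. Because the summits are on hg19 and the sequences on GRCh38, whether a summit lies inside these 250 bases was not settled. The sequence under each summit was not analysed here.

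For each peak the deposited values are the fold enrichment over the control and the −log10 q-value. ChIP reads over the summit and the control background behind the fold were recovered from the deposited fold and p-value, and they are given with an exact 95% Poisson interval that covers counting error only. The background was never below 2.41 control reads per 142 bp, the genome-wide level, which is a floor. Over the whole list the median fold was 11.3, the median of ChIP reads 43 and the median width 255 bp. The highest value was 284 ChIP reads.

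CDKN1A carried 5 TP73 summits, 4 of them inside its span and 1 upstream. The upstream summit was the strongest, 8.95 kb before the rounded start at chromosome 6, 36634756 to 36635221. It had a fold of 50.97, a −log10 q-value of 244.0 and 177 ChIP reads (interval 152 to 205), more than 95.2% of all peaks by reads. The first summit inside the span, 0.219 kb after its start, had a fold of 23.2 and 80 reads (63.4 to 99.6). Next came a summit at 1.14 kb with a fold of 14.9 and 51 reads (38.0 to 67.1), only 923 bp from the one before. The summit at 2.36 kb had a fold of 14.3 and 49 reads (36.3 to 64.8). Farther into the gene, at 6.45 kb, a summit had a fold of 22.3 and 77 reads (60.8 to 96.2). The upstream interval lay above all 4 others, whereas each of those 4 overlapped the interval of at least one other. CDKN1A has several transcript starts, and its distances are counted from the first base of the span, not from the RefSeq start of its promoter. The classical p53 response elements of this gene are known to lie upstream of its main start. Whether the first summits of the span coincide with them was not settled without hg19 sequence. At all 5 CDKN1A summits the background was that genome-wide floor. In RefSeq the protein-coding neighbours are SRSF3 and RAB44.

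BTG2 had the most summits, 7, of which 3 were upstream, 2 inside the span and 2 downstream. The strongest lay 15.1 kb upstream (chromosome 1, 203258742 to 203259069), with a fold of 37.4, a −log10 q-value of 175.4 and 142 reads (120 to 167). A second strong summit stood inside the gene, 1.82 kb from its start, with a fold of 25.8 and 127 reads (106 to 151). These intervals overlap, and whether the strongest pair differ was not tested. The other 5 were weaker, 4 of them with 41 to 44 reads and 1 with 30. The summit 17.5 kb upstream had 44 reads (31.97 to 59.1), and the summit 1.22 kb upstream had 42 (30.3 to 56.8). The summits at 0.567 kb and 16.2 kb had 41 reads each (29.4 to 55.6), and the one at 22.5 kb had 30 (20.2 to 42.8).

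The folds of those 5 BTG2 summits differed more than their reads, since the control differed. The fold was 10.98 at 17.5 kb upstream, over 3 control reads, and 9.61 at 0.567 kb, over 3.27. It was 6.98 at 22.5 kb, over 3.34 control reads. The lowest folds, 5.995 at 1.22 kb upstream and 4.55 at 16.2 kb, stood over 6 and 8 control reads. At this last pair the fold and p-value allow a second solution, of 39.99 ChIP reads over 5.67 control reads at the first and 39.1 over 7.60 at the other. The values given are the solutions nearest to whole reads, and the control was above that at the other 3 weak summits under either. The summit 16.2 kb downstream of the start exceeded only 0.254% of all peaks by fold but 45.7% by reads. All 7 BTG2 summits had a background above the genome-wide level, from 2.73 to 8 reads. BTG2 lies in the part of chromosome 1 beyond 200 Mb, where 2 of 544 peaks (0.368%) stood at that level, against 46.5% of 1518 peaks on the rest of the chromosome. The fold is divided by the background, so each of these folds is lower than the same reads would give over the genome-wide level. What raised the control there was not tested.

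**Figure D1:**
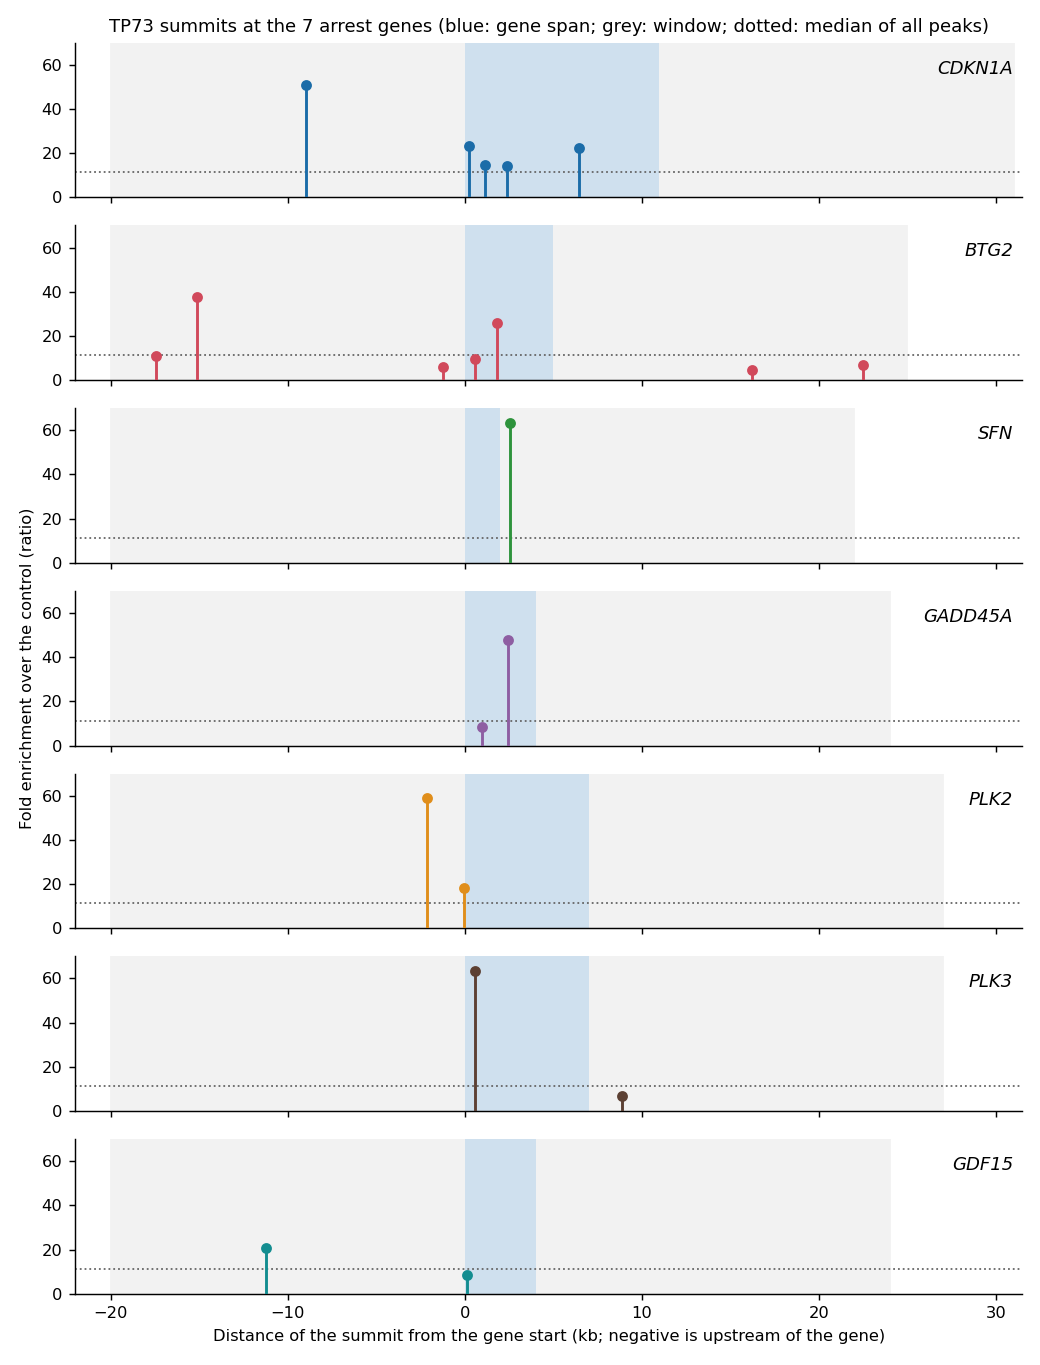
Summits in each gene's window, with the distance from the gene start in kb on the horizontal axis (negative is upstream along the gene) and the fold over the control as stem height. Blue marks the gene span, grey the window, and the dotted line the median fold of 11.3 over all peaks. CDKN1A and BTG2 carry 5 and 7 summits, the other genes 1 or 2.

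SFN and GADD45A, which act at entry into mitosis, each carried 1 strong summit close to the gene. SFN encodes stratifin, an adaptor protein that holds mitotic kinase complexes in the cytoplasm. Its single summit lay 2.58 kb from the gene start, which is 583 bp past the rounded end of the short gene (chromosome 1, 27191292 to 27192040). It had a fold of 63.3, a −log10 q-value of 323.5 and 220 reads (192 to 251), and its width of 749 bp exceeded that of 98.5% of peaks. No peak was called in the 20 kb before SFN, although p53 elements are known upstream of this gene. The nearest peak on that side lay 23.4 kb from the start, outside the window, with a fold of 34.1 and 118 reads. The protein-coding neighbours of SFN in RefSeq are ZDHHC18 and GPN2.

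GADD45A encodes a growth arrest protein that binds the mitotic kinase CDK1 and PCNA. Its strongest summit lay inside the span, 2.47 kb from the start (chromosome 1, 68152200 to 68152708), in a gene known for an intronic p53 element. It had a −log10 q-value of 318.9 and 245 reads (215 to 278), the second highest number among the 21 summits. The fold was 47.99, lower than at SFN, PLK2 and CDKN1A despite more reads, because 4 control reads covered the summit. A weak summit 0.974 kb from the start had a fold of 8.31 and 28 reads (18.6 to 40.5). The strong summit thus had 8.75 times the reads of the one nearest the start. No other peak lay within 50 kb of GADD45A, and the next one was 274.4 kb upstream.

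The polo-like kinase genes both had a summit within 1 kb of the rounded start, but the strong one was placed differently. PLK2, a kinase of centriole duplication and stress response, runs on the minus strand. The PLK2 summit nearest the start lay 23 bp upstream of the rounded start (chromosome 5, 57755903 to 57756164), with a fold of 18.3 and 63 reads (48.4 to 80.6). The strongest lay 2.12 kb upstream (57757911 to 57758305), with a fold of 58.99, a −log10 q-value of 294.7 and 205 reads (178 to 235). The intervals do not overlap, and the upstream summit had 3.25 times the reads. By the rounded start, the PLK2 promoter with the decamer, printed above, is next to the weaker of these summits. No other peak lay within 50 kb of PLK2.

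PLK3, a kinase activated by DNA damage and other stress, had the strongest summit of all 21. It stood 0.605 kb from the rounded start (chromosome 1, 45265331 to 45266174), with a fold of 63.4, a −log10 q-value of 374.5 and 259 reads (228 to 293). By reads it exceeded 99.5% of all peaks, and at 844 bp it was the widest of the 21. The control background at this summit was 3 reads, so its fold was close to that of SFN, which had fewer reads over the genome-wide level. A second PLK3 summit 8.87 kb from the start, 1872 bp past the rounded end of the gene, had a fold of 6.83 and 34 reads (23.5 to 47.5). BEST4 and DYNLT4 are the protein-coding neighbours of PLK3 in RefSeq, and whether the second summit lies in the latter was not settled without hg19 positions of these genes.

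GDF15 was the weakest of the 7 genes. Its summit nearest the rounded start, 0.112 kb into the rounded span (chromosome 19, 18496056 to 18496197), had a fold of 8.31, a −log10 q-value of 16.8 and 28 reads (18.6 to 40.5), below the median of all peaks. Its width of 142 bp is the shortest in the list. A stronger summit lay 11.2 kb upstream, with a fold of 20.7, a −log10 q-value of 81.1 and 84 reads (67.0 to 104). The upstream protein-coding neighbour in RefSeq is PGPEP1, and whether the stronger summit lies in it was not settled. A further summit missed the window by 187 bp, 20.2 kb upstream, with a fold of 13.2 and 53 reads. This miss is smaller than the rounding of the span, so the exact span could place that summit inside the window. The count of 2 at GDF15 and the total of 21 are those of the rounded spans. The weak summits at GDF15 and GADD45A had the same number of reads over the same background.

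**Figure D2:**
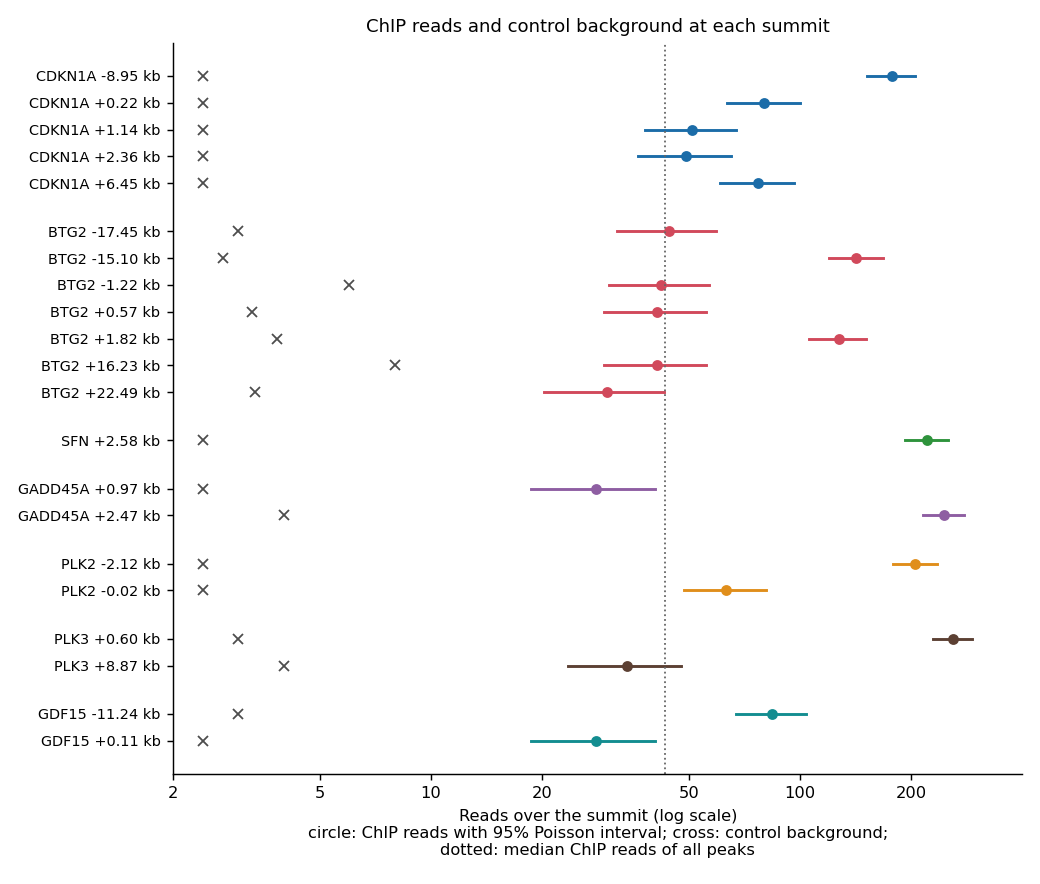
ChIP reads over each of the 21 summits on a log scale (circles, with 95% Poisson intervals) and the control background of the same summit (crosses), grouped by gene and labelled by distance from the gene start. The strongest summit of each gene lies to the right of the dotted line at 43 reads, the median of all peaks. The background crosses lie right of 2.41 at all 7 BTG2 summits. They also do so at both PLK3 summits and at the strongest summits of GADD45A and GDF15.

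Ordered by the reads of their strongest summit, the genes ran PLK3 (259), GADD45A (245), SFN (220), PLK2 (205), CDKN1A (177), BTG2 (142) and GDF15 (84). The intervals of neighbours in this order overlapped, except between BTG2 and GDF15. The interval of PLK3 overlapped those of GADD45A, SFN and PLK2, and it lay above those of CDKN1A, BTG2 and GDF15. Overlap of 2 intervals is not a test of a difference, and no such test was run. The order by fold was different for GADD45A, which ranked 5 of 7 by fold. Since each value is the highest of up to 7 summits, genes with more summits had more chances of a high one. BTG2, with the most summits, ranked 6 of 7 by reads, and SFN, with 1, ranked 3. How far the number of summits bears on the order was not tested.

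The strongest summit was not the one nearest the start at 5 of the 7 genes, CDKN1A, BTG2, GADD45A, PLK2 and GDF15. At these genes it had 2.21 times the reads of the nearest at CDKN1A, 3.46 times at BTG2, 8.75 times at GADD45A, 3.25 times at PLK2 and 3 times at GDF15. At CDKN1A the nearest summit is the one nearest the first base of the span, and a start inside the gene could make it another summit. The count also depends on the reach of 20 kb. The strongest summits of CDKN1A, BTG2 and GDF15 lay 8.95, 15.1 and 11.2 kb upstream, outside a reach of 5 kb. Within that reach the strongest summit was the nearest at CDKN1A and GDF15, but still not at BTG2. SFN has 1 summit, so its strongest is its nearest by necessity. How many of the 7 genes would differ through their numbers of summits alone was not tested. By the rounded spans, the strongest summit was upstream in 4 cases, inside in 2 (GADD45A and PLK3) and just downstream in 1 (SFN). Of all 21 summits, 7 were upstream, 10 inside and 4 downstream. The 20 kb upstream of each gene is a large part of its window of 42 to 51 kb. Whether 4 of 7 exceeds that part was not tested. Of the 4 upstream cases, only PLK2, at 2.12 kb, lies within a reach of 5 kb. The PLK3 summit was 605 bp past a rounded start and the SFN summit 583 bp past a rounded end. Both distances are below the rounding of about 1 kb, so neither place is settled. The 6 summits within 1 kb of a start had a median fold of 13.97 and a median of 52 reads, and the 15 others 20.7 and 77 reads. Both groups spanned nearly the same range of reads, 28 to 259 near the starts and 30 to 245 farther away. Neighbouring summits of a gene were 923 to 14405 bp apart, so none of them shared a fragment of 142 bp.

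Across the 21 summits the median fold was 18.3, against 11.3 over the whole list, and the median number of reads 63 against 43. A fold of at least 20 was reached by 10 of the 21 (47.6%), against 23.0% of all peaks, and a fold of at least 50 by 4 of the 21 (19.0%), against 3.54% of all peaks. At the other end, 8 of the 21 had a fold below the median of the list, 5 of them at BTG2. The genome-wide background applied to 10 of the 21 summits (47.6%), close to 51.9% of all peaks. The strongest summits of the 7 genes were 300 to 844 bp wide, all above the median width of the list. Width and fold come from the same pileup, so this is no separate feature.

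Windows of the same length, laid end to end along the chromosomes, give the background for the counts per gene. At least 1 summit was found in 17.9% of windows as long as that of SFN and in 20.8% of windows as long as that of CDKN1A, with the other lengths between (18.6% for GADD45A and GDF15, 18.8% for BTG2, 19.6% for PLK2 and PLK3), whereas all 7 genes had 1. As many as 5 summits, the number at CDKN1A, were found in 0.425% of 58800 windows of its length. As many as 7, the number at BTG2, were found in 0.0660% of 66642 windows (44 windows). The counts at the other genes were more common. At least 2 summits were found in 5.72% of windows as long as those of GADD45A and GDF15 and in 6.19% of windows as long as those of PLK2 and PLK3, and the single summit of SFN matched 17.9% of windows. A summit with a fold of at least 20 was present at all 7 genes and in 6.47% of windows as long as the longest of theirs, 51 kb. A fold of at least 50 was reached at 4 genes (PLK3, SFN, PLK2 and CDKN1A) and in 1.10% of such windows. Both counts depend on the reach of 20 kb. GDF15 reached a fold of 20 only by its summit of 20.7, which lay 11.2 kb upstream, outside a reach of 5 or 10 kb. The CDKN1A summit of fold 50.97 lay 8.95 kb upstream, outside a reach of 5 kb. The windows laid end to end cover regions without genes and assembly gaps, and they are not matched for genes. The shares therefore describe the genome, and how TP73 peaks at these 7 genes compare with those at other genes was not tested. The members were also chosen with earlier results of these data known, so setting them against the windows is not a test.

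**Figure D3:**
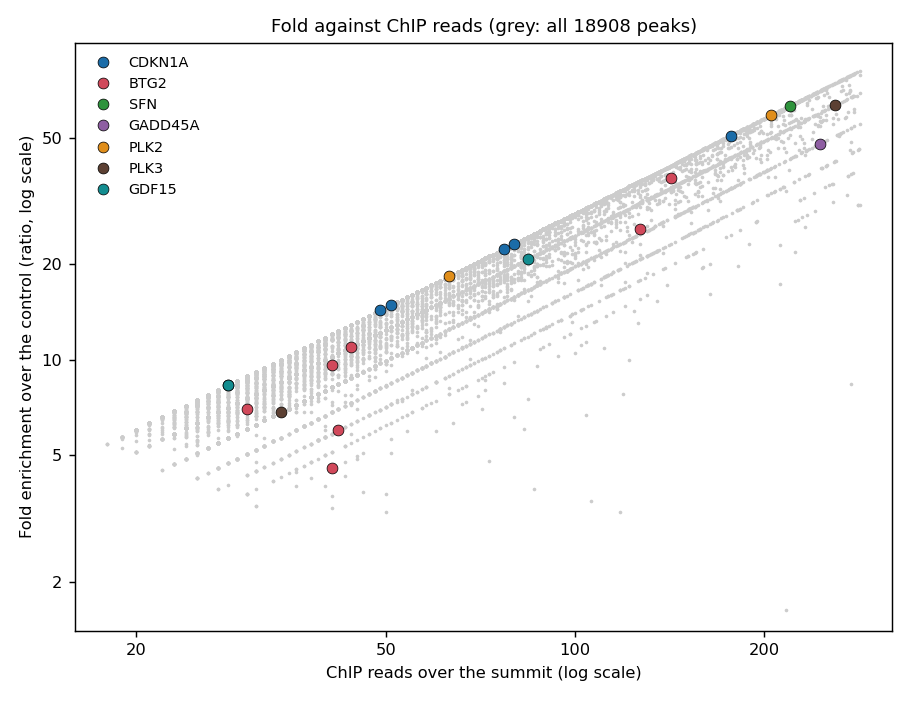
Fold over the control against ChIP reads over the summit, both on log scales, for all 18908 peaks (grey) and the 21 summits (coloured by gene). Summits on the upper edge have the genome-wide background. All BTG2 and PLK3 summits lie below that edge, as do the strongest summits of GADD45A and GDF15. The lowest fold is that of a BTG2 summit, 4.55 at 41 reads. The weak summits of GADD45A and GDF15 coincide at 28 reads and a fold of 8.31.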

How the data were processed

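The authors deposited 1 peak list, for the ChIP library. MACS2 2.1.1.2016030, SAMtools and Bowtie2 are named with hg19, per the submitters' processing notes. Their settings were not given in the sources used here. Single-end reads of 50 bases were sequenced, per the labels' protocols. The deposited values per peak are a fold (a ratio of ChIP pileup to control background), −log10 p-value and q-value, and a score, not used here. Peak names contain IgG while the labels name whole cell extract, so which control was used is not settled. Positions are counted from 1.

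Reads were recovered by solving the caller's fold, (pileup + 1) / (background + 1), and its Poisson tail jointly, keeping backgrounds of at least 1 read and, where several solutions existed (101 peaks, among them BTG2 at 1.22 kb upstream and at 16.2 kb), the one nearest to whole reads. A ChIP read was worth 0.975 units of pileup. At 8987 peaks not used to fit that step, 100% gave whole reads within 0.01. The method was also checked on data simulated with the same formulas, so that check could not show whether the caller used them. Gene spans and members were given for this work, and members and lists were chosen with earlier results of these data known. All 7 members are named, by rule. A planned list of 20 further arrest genes was not run, since hg19 gene positions were not used here. Alternatives were other reaches, limits on q-value and fold, overlap, merging and a read minimum. The p53-family decamer was searched in RefSeq promoters of GRCh38.p14. Tools were Python 3.11.15, numpy 2.4.6, pandas 2.3.3, scipy 1.17.1, numba 0.67.0 and matplotlib 3.10.9.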

Additional observations from a re-analysis of the deposited data

How the results depend on the processing

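All 7 genes kept at least 1 summit under every alternative run. The total of 21 summits was 15 with a reach of 5 kb, 16 with 10 kb and 30 with 50 kb, and it was 20 with a fold of at least 5. It stayed at 21 with a −log10 q-value of at least 10, with any overlap in place of the summit, and with peaks closer than 500 bp merged. A fold of at least 20 left 10 summits, and at least 30 ChIP reads, added after seeing the data, left 19. BTG2 had 3 summits with a reach of 5 or 10 kb, and GDF15 had 1 with those reaches and 7 with 50 kb. The mean share of same-length windows with a summit, 19.1% over the 7 lengths, was 7.86% with a reach of 5 kb, 34.6% with 50 kb and 20.3% on the chromosomes that carry these genes. The median of reads over the members' summits was 63, and 70 at those on the genome-wide background. No paired analysis was possible because each group has a single library, and for the same reason no library could be left out. Sites below the caller's limit were not analysed here.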

Other observations

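Peaks between 20 and 50 kb from the spans were uneven. CDKN1A, BTG2, GADD45A and PLK2 had no further summit there, SFN and PLK3 had 2 more each, and GDF15 had 5 more. The next peak beyond the 7 at BTG2 lay 202.8 kb from its start and the next beyond the 5 at CDKN1A lay 79.6 kb from its start. The nearest further peak of PLK2 lay 165.1 kb away, past the end of the gene. At SFN the further pair lay upstream, at 23.4 and 28.8 kb, with folds of 34.1 and 26.3.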
